A study of Mus musculus with 9 samples.

Results

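White adipose tissue (WAT) from around the epididymis, a visceral fat pad of male mice, was compared between mice fed a high-fat diet with luteolin (LU) and mice fed a normal diet (ND). Luteolin is a plant flavonoid. The male mice are named C57BL/6J in the protocol and C56BL/6J in the strain label, and they arrived at 4 weeks of age. LU mice received the high-fat diet with 0.005% luteolin by weight, and a high-fat diet group (HFD) received the same diet without it, for 16 weeks as in ND. The labels give the high-fat diet as 20% fat and 1% cholesterol. The comparison uses the 6 arrays of LU and ND out of the 9 arrays of the series, with the 3 HFD arrays as the point of orientation. The methods describe pooled RNA samples and do not say how many mice went into a pool. The p-values therefore reflect only how far these RNA samples differ. The question was which genes were still away from the ND level in LU mice, and which were away from it in a direction that the HFD alone did not give.

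Under a high-fat diet the adipocytes of this depot enlarge, and macrophages gather around dying ones, take up their lipid and build up lysosomes. Resident macrophages, mast cells, lymphatic vessels, fibroblasts and the mesothelium that covers the fat pad are among the other cells of the tissue. All values below are log2 intensities of whole tissue, on a scale whose background lay at 7.79 to 7.83 and whose highest value was 16.06. In whole tissue, fewer cells of a type and less RNA per cell cannot be told apart. The tissue label fitted its markers: the adipocyte hormone gene Adipoq stood at 15.87, 15.89 and 15.82 on the LU arrays, against 15.87, 15.86 and 15.94 on the ND arrays. The lipid droplet gene Plin4 stood between 15.93 and 15.99 on these 6 arrays.

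Of 8699 named genes, 3454 passed an adjusted p of 0.05 in LU against ND, which is 39.7%, with 1833 higher and 1621 lower. Names were at hand only for probes of the authors' table, whose selection is not given in the sources used here. Over all 20558 probes kept, 29.9% passed, and of the 8258 probes kept without a name 1225 passed. Changes were mostly small: the median size among the genes that passed was 0.30 on the log2 scale, and 468 of them reached 1.5-fold. The LU and ND arrays did not overlap for 54.4% of the named genes. With 3 arrays against 3 an exact permutation test cannot go below p = 0.1, so single genes rest on the limma fit over all 9 arrays. The LU arrays resembled each other most (correlation 0.9982 to 0.9984 over probes), and the ND arrays least (0.9942 to 0.9958).

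Genes were classed by their place relative to HFD. The first class, still away from ND in the direction of the HFD, held 2287 genes: 1255 were higher in LU than in ND (14.4% of the named genes) and 1032 were lower (11.9%). For 1483 of these the difference between LU and HFD did not pass, for 718 LU lay nearer to ND than HFD did, and for 86 LU lay farther from ND. The second class, away from ND in a direction the HFD alone did not give, held 745 genes. In 87 of these HFD passed on the other side of ND (39 higher and 48 lower in LU, 0.448% and 0.552% of the named genes). In the other 658, HFD did not pass against ND while LU passed against both (341 higher and 317 lower, 3.92% and 3.64%). Another 422 genes passed in LU against ND alone, with HFD between them (198 higher and 224 lower in LU), and fall in neither class. A further class of 1310 genes passed in HFD against ND, shifted the other way between LU and HFD by the same test, and fell short of the threshold in LU against ND. In HFD against ND 52.9% of the named genes passed (25.2% higher and 27.7% lower), and in LU against HFD 37.9% passed (19.7% higher and 18.2% lower). The comparisons of LU and of HFD with ND share the ND arrays, so an unusual ND array moves both.

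**Figure D1:**
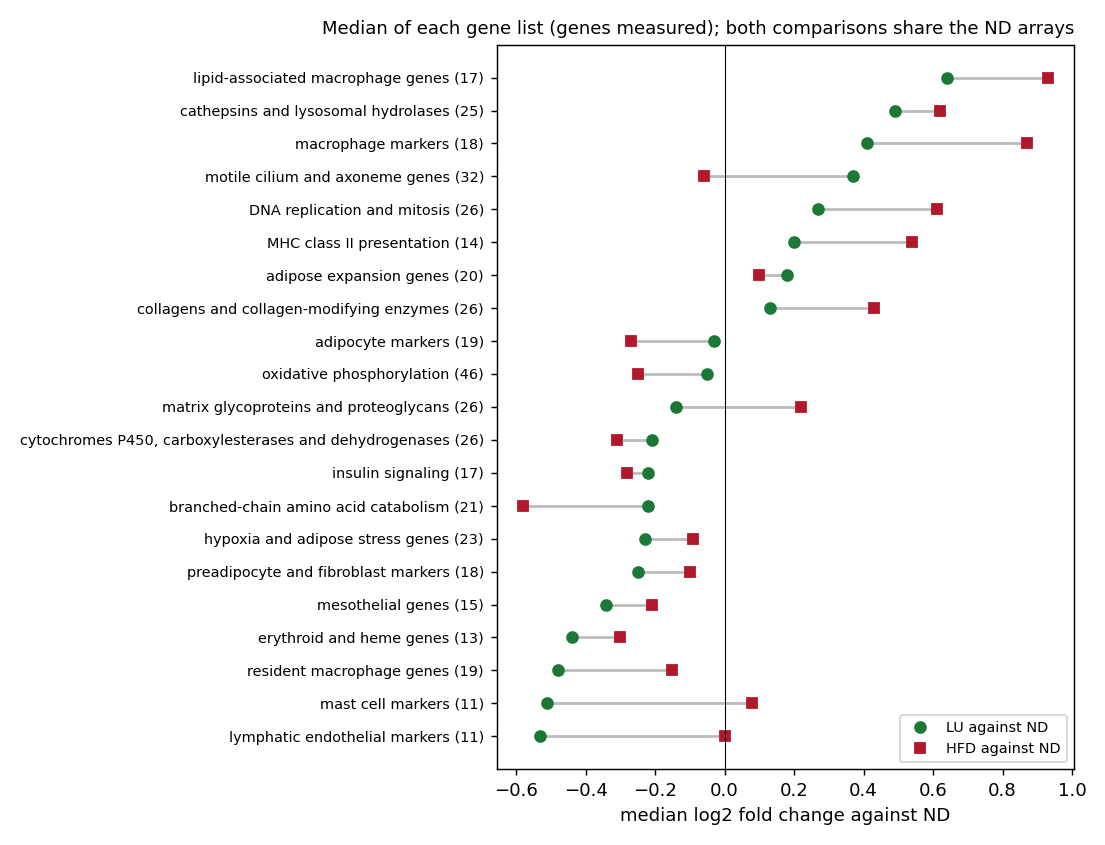
Median log2 fold change against ND (x axis) over the measured genes of 21 gene lists, with the number of genes in parentheses. Circles are LU against ND and squares are HFD against ND. The lists of general and lipid-associated macrophages and of lysosomal hydrolases lie to the right for both diets, the resident macrophage list to the left for both, the mast cell and lymphatic lists lie to the left for LU only, and the motile cilium list lies to the right for LU only.

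Mmp12, Gpnmb and Trem2, genes of macrophages filled with lipid, were among the 5 largest rises that remained under luteolin. Of 17 measured genes of lipid-associated macrophages, 15 were higher in LU than in ND and none lower, with a median of 0.64 (0.51 with 2 genes at their lower bound), where 21.1% of all named genes were higher and the median was 0.01. The same median was 0.93 in HFD against ND. Trem2, a lipid-sensing receptor of these cells, stood at 11.94, 11.63 and 11.84 in LU, at 12.83, 12.69 and 12.29 in HFD, and at 9.13, 8.95 and 8.68 in ND. It was 7.36-fold higher in LU than in ND (log2 2.88 ± 0.14 SE, adjusted p = 1.4e-07) and lower in LU than in HFD (log2 -0.80, adjusted p = 0.0012). Thus every LU array lay above the ND arrays and below the HFD arrays, and much closer to HFD. Gpnmb, a membrane glycoprotein of lysosome-rich macrophages, showed the same order, with 14.97, 14.70 and 14.74 in LU, 15.57, 15.44 and 15.07 in HFD, and 11.90, 11.99 and 11.60 in ND. Mmp12, the macrophage elastase, was at 12.46, 12.11 and 12.39 in LU, 13.10, 13.07 and 12.64 in HFD, and 9.11, 8.79 and 9.17 in ND. Its rise over ND was 3.30 ± 0.13 in LU and 3.91 in HFD. Galectin 3, encoded by Lgals3, was at 15.51, 15.48 and 15.56 in LU and at 14.23, 14.08 and 14.23 in ND. It was 1.34 higher in LU than in ND, and its difference between LU and HFD did not pass (log2 -0.14, adjusted p = 0.14). The LU values of Lgals3 lie not far below the top of the scale, which may limit that difference.

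Lysosomal genes moved with them. Of 25 cathepsins and lysosomal hydrolases, 19 were higher in LU than in ND and 2 lower, with a median of 0.49 (0.62 in HFD). Among all named genes 21.1% were higher in LU and 18.6% lower. Ctsk, cathepsin K, rose by 1.37 in LU and by 2.20 in HFD. Lipa, the lysosomal acid lipase that frees stored lipid, rose by 1.07 in LU and by 1.66 in HFD. General macrophage markers were higher in 13 of 18 cases and lower in 3, with a median of 0.41 (0.87 in HFD). Adgre1, which encodes F4/80, stood at 11.76, 11.52 and 11.63 in LU and at 10.79, 10.76 and 10.80 in ND, a rise of 0.85 against 1.66 in HFD. The 3 markers that were lower in LU were Cd163 and Mrc1, which resident macrophages share, and the endotoxin co-receptor gene Cd14 (log2 -0.53). For the chemokine Ccl2 the rise was 0.36 in LU and 1.08 in HFD, and for Ccl7 it was 0.46 in LU and 1.25 in HFD. Irf5, an inflammatory transcription factor of macrophages, was 0.63 higher in LU than in ND and 0.50 lower than in HFD (adjusted p = 0.00043). All 3 genes therefore stayed above ND while lying below HFD. Ccl7 fell short of the threshold without the first LU array (adjusted p = 0.06) or the second ND array (adjusted p = 0.076).

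Genes of DNA replication and mitosis were also still raised. Of 26 measured, 17 were higher in LU than in ND and none lower, where 21.1% of all named genes were higher. The median was 0.27 (0.25 with 2 genes at their lower bound), against 0.61 in HFD. Of the 26, 3 were not above background on any ND array, so they were kept only through the other groups. Prc1, which bundles the microtubules of the dividing spindle, was at 9.51, 9.58 and 9.58 in LU, at 10.40, 10.57 and 10.25 in HFD, and at 8.87, 8.97 and 8.85 in ND. The 3 groups did not overlap, and LU took the middle place. Of 14 class II presentation genes, 7 were higher in LU, beside the same 21.1% of all named genes, and none were lower. Their median was 0.20, against 0.54 in HFD. The lysosomal protease Ctss (1.40) and the peptide-loading chain H2-DMb1 (0.85) rose, and the class II chain H2-Aa rose by 0.48. The chain H2-Ab1 differed from ND by 0.18 in LU (adjusted p = 0.06) and by 0.48 in HFD. Without the first or second ND array H2-Ab1 passed (adjusted p = 0.033 and 0.041).

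Outside the macrophage lists, the rise shared by both diets was large for genes of varied function. Tph2, one of the enzymes that limit serotonin synthesis and best known from the brain, stood at 12.15, 12.18 and 12.31 in LU, at 12.63, 13.13 and 12.33 in HFD, and at 9.12, 8.14 and 9.48 in ND. It was 9.88-fold higher in LU than in ND (log2 3.30 ± 0.27, adjusted p = 4.8e-06). Its difference between LU and HFD did not pass (log2 -0.48, adjusted p = 0.2). Ubd, a ubiquitin-like modifier induced by inflammatory cytokines, rose by 3.11 in LU and by 3.68 in HFD. Saa3, an acute-phase protein made in fat, was at 11.05, 11.57 and 11.50 in LU and at 8.89, 8.79 and 8.88 in ND. Vsig8 was not well above background on any ND array and was at least 2.74-fold higher in LU (adjusted p = 1.8e-06). Slc5a7, a choline transporter, rose by 1.42 in LU and by 1.87 in HFD. Clec7a, the receptor for fungal glucans known as dectin-1, rose by 1.51 in LU and by 1.74 in HFD. For neither Slc5a7 nor Clec7a did LU against HFD pass.

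Some genes tied to the growth of fat cells differed little between LU and HFD. Lep, which encodes the satiety hormone leptin, was at 15.87, 15.94 and 15.92 in LU, at 16.01, 16.00 and 16.00 in HFD, and at 15.44, 15.05 and 15.47 in ND. These values lie at the top of the scale, which leaves little room for a difference between LU and HFD. Sfrp5, a secreted Wnt inhibitor, rose by 0.87 in LU and by 0.88 in HFD, and the 95% interval of LU minus HFD ran from -0.21 to 0.20. Among 20 genes of fat expansion, 10 were higher in LU than in ND and 4 lower (median 0.18, and 0.10 in HFD). The shares of all named genes were 21.1% higher and 18.6% lower in LU. The list as a whole was mixed: between LU and HFD 2 were higher in LU and 5 lower, where 37.9% of all named genes passed. In this list 6 genes were still away from ND in the direction of the HFD, 2 took the opposite side and 4 differed in LU alone. Collagens were partly still raised: 11 of 26 collagens and their modifying enzymes were higher in LU and 2 lower (median 0.13), where HFD had 20 higher and none lower (median 0.43). Of all named genes 21.1% were higher in LU and 25.2% in HFD. Col16a1 was at 12.53, 12.35 and 12.40 in LU, at 12.32, 12.30 and 12.39 in HFD, and at 11.33, 10.69 and 11.35 in ND. Col3a1, a main fibrillar collagen, was 0.62 higher in LU and 1.40 higher in HFD, so it lay between.

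**Figure D2:**
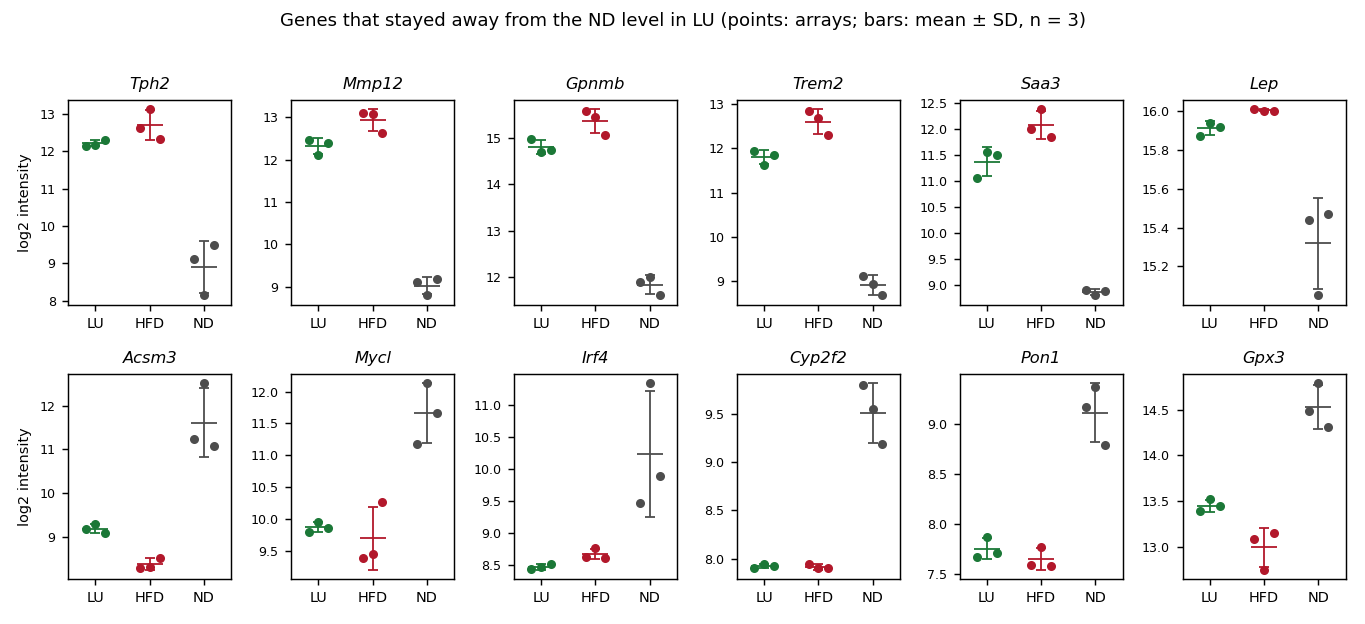
Log2 intensity (y axes, each panel on its own range) of 12 genes on the 3 LU, 3 HFD and 3 ND arrays, with mean and SD. In the top row LU lies with HFD above ND, and in the bottom row LU lies with HFD below ND. LU and ND do not overlap in any panel, but most of these genes were chosen from genes without such overlap. No overlap holds for 54.4% of all named genes.

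The largest fall that remained was that of an enzyme. Acsm3, a mitochondrial enzyme that activates medium-chain fatty acids, was at 9.19, 9.31 and 9.09 in LU, at 8.31, 8.33 and 8.54 in HFD, and at 11.24, 12.51 and 11.07 in ND. It was 5.32-fold lower in LU than in ND (log2 -2.41 ± 0.27, adjusted p = 5.1e-05), and LU lay nearer to ND than HFD did (adjusted p = 0.04). Without the second ND array the difference of Acsm3 was -1.74. Cyp2f2, a cytochrome P450, was at 7.90, 7.94 and 7.92 in LU, at 7.95, 7.90 and 7.90 in HFD, and at 9.79, 9.55 and 9.18 in ND. Both high-fat groups thus sat just above background, and the difference between them was 0.00. Pon1, a lipid-bound esterase, differed from ND by -1.36 in LU and by -1.46 in HFD. Ces1f, a carboxylesterase, differed by -1.36 in LU and by -2.05 in HFD. Hsd11b1, which regenerates active glucocorticoid in fat, differed by -0.88 in LU and by -1.18 in HFD. Of 26 genes of this enzyme list, 14 were lower in LU and 5 higher, where 18.6% of all named genes were lower and 21.1% higher. The secreted glutathione peroxidase Gpx3 was at 13.39, 13.52 and 13.44 in LU, at 13.08, 12.75 and 13.15 in HFD, and at 14.49, 14.79 and 14.31 in ND. Gsta4, which clears products of lipid peroxidation, differed by -0.96 in LU and by -1.56 in HFD. The antioxidant and glutathione list did not share this fall. Of its 34 measured genes, 10 were higher in LU than in ND and 10 lower (median 0.08). In HFD 8 were higher than ND and 16 lower (median -0.11), and between LU and HFD 16 were higher in LU and 2 lower. Over all named genes 25.2% were higher and 27.7% lower in HFD, and 19.7% were higher in LU than in HFD and 18.2% lower.

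Most insulin signaling genes stayed low. Of 17 measured, 10 were lower in LU than in ND and 2 higher, with a median of -0.22 (-0.28 in HFD), where 18.6% of all named genes were lower. The insulin receptor gene Insr stood at 12.97, 12.91 and 12.87 in LU, at 12.64, 12.56 and 12.68 in HFD, and at 13.07, 13.35 and 13.18 in ND. It differed from ND by -0.28 in LU and by -0.57 in HFD, and LU was higher than HFD (adjusted p = 0.0091). A second probe of Insr did not pass in LU against ND (log2 -0.16, adjusted p = 0.15). Pik3cb, a catalytic subunit of the kinase downstream of the receptor, was at 11.19, 11.21 and 11.24 in LU, at 11.21, 11.22 and 11.16 in HFD, and at 11.67, 11.94 and 11.96 in ND. It differed from ND by -0.64 in LU and by -0.66 in HFD, and the 95% interval of LU minus HFD ran from -0.14 to 0.17. The adaptor Grb10 and the regulatory subunit Pik3r1 differed from ND by -0.73 and -0.60 in LU. Ptpn1, a phosphatase that switches the receptor off, was 0.28 higher in LU and 0.33 higher in HFD. Slc2a4, the insulin-regulated glucose transporter GLUT4, did not pass in LU against ND (log2 0.04, adjusted p = 0.76), while HFD differed from ND by -0.26.

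Fewer genes of branched-chain amino acid breakdown were below ND in LU than in HFD. Of 21 genes, 9 were lower in LU and 18 in HFD, with medians of -0.22 in LU and -0.58 in HFD. Bckdhb, a subunit of the complex that commits these amino acids to breakdown, was at 12.21, 12.00 and 12.13 in LU, at 11.34, 11.53 and 11.53 in HFD, and at 12.13, 12.12 and 12.02 in ND. Its LU and ND arrays overlapped, and the difference was 0.03. Dbt, another subunit of the same complex, was at 11.17, 11.37 and 11.24 in LU, at 11.19, 11.23 and 11.26 in HFD, and at 11.80, 12.03 and 11.96 in ND. Dbt differed from ND by -0.67 in LU and by -0.71 in HFD, but a second probe of Dbt did not pass in LU against ND (log2 -0.11, adjusted p = 0.35). Of 46 oxidative phosphorylation genes, 9 were lower than ND in LU and 31 in HFD, and of 19 adipocyte markers 3 were lower in LU and 11 in HFD. Over all named genes 18.6% were lower in LU and 27.7% in HFD, so the LU counts of both lists lie near the share of all genes.

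The transcription factor genes Mycl and Irf4 were low in both high-fat groups. Mycl, of the MYC family, was at 9.80, 9.95 and 9.85 in LU, at 9.38, 9.44 and 10.26 in HFD, and at 11.18, 12.13 and 11.67 in ND. Irf4, a factor that promotes lipolysis in adipocytes, was at 8.43, 8.46 and 8.51 in LU, at 8.63, 8.76 and 8.61 in HFD, and at 9.47, 11.34 and 9.89 in ND. The second ND array was the highest for both genes, and also for Acsm3. Irf4 differed from ND by -1.77 ± 0.33 (adjusted p = 0.0018). Of 23 hypoxia and stress genes, 11 were lower in LU than in ND and 4 higher, where 18.6% of all named genes were lower and 21.1% higher. The median of the list was -0.23 in LU and -0.09 in HFD. Without the second ND array the median was -0.12. Chac1, which degrades glutathione, differed from ND by -1.1 in LU and by -1.23 in HFD. Sesn2, a stress-induced brake on growth signaling, fell by 0.85 in LU and in HFD, and Asns, asparagine synthetase, fell by 0.63 in LU.

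A smaller set was farther from ND in LU than in HFD. Lyve1, a hyaluronan receptor of lymphatic vessels and of resident macrophages, was at 9.12, 8.91 and 9.0 in LU, at 10.41, 10.24 and 10.34 in HFD, and at 10.68, 10.78 and 10.70 in ND. The difference from ND was -1.71 ± 0.07 in LU (adjusted p = 5e-08) and -0.39 in HFD, and LU differed from HFD by -1.32 (adjusted p = 1e-06). Mesothelial genes went the same way: 11 of 15 were lower in LU than in ND and 3 higher (median -0.34, and -0.21 in HFD). Of all named genes 18.6% were lower in LU and 21.1% higher. Upk3b, a uroplakin of the mesothelial surface, was at 9.20, 9.30 and 9.41 in LU, at 9.92, 9.93 and 10.37 in HFD, and at 10.61, 10.81 and 10.86 in ND. Slpi, a secreted protease inhibitor, differed from ND by -1.31 in LU and by -0.38 in HFD.

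Genes of red blood cells were lower than ND in 9 of 13 cases in LU and also in 9 in HFD (medians -0.44 in LU and -0.30 in HFD). The shares of all named genes that were lower were 18.6% in LU and 27.7% in HFD. Between LU and HFD 2 of the 13 were higher and 4 lower, beside 19.7% and 18.2% of all named genes. Alas2, which starts heme production in erythroid cells, was at 9.70, 9.78 and 9.64 in LU, at 9.97, 10.84 and 10.68 in HFD, and at 12.10, 12.59 and 11.36 in ND. The globin gene Hba-a1 was at 14.68, 14.67 and 14.59 in LU, at 15.14, 15.87 and 15.71 in HFD, and at 15.97, 15.99 and 15.96 in ND. The ND values of Hba-a1 lie at the top of the scale, which limits the size of its fall. It has a near-identical copy that its probe may not tell apart. The part of residual blood in these values was not tested.

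Resident macrophage genes were low in LU although general macrophage markers were high. Of 19 measured, 16 were lower in LU than in ND and none higher, with a median of -0.48, where 18.6% of all named genes were lower. In HFD 5 were higher and 8 lower, with a median of -0.15, beside 25.2% and 27.7% of all named genes. Folr2, a folate receptor of tissue macrophages, was at 11.12, 10.95 and 11.08 in LU, at 12.19, 12.14 and 11.98 in HFD, and at 11.68, 11.61 and 11.29 in ND. It was 0.48 lower in LU than in ND (adjusted p = 0.0027) and 0.57 higher in HFD (adjusted p = 0.00043), so the groups stood on opposite sides of ND. The mannose receptor Mrc1 was at 12.15, 11.98 and 12.11 in LU, at 12.92, 12.87 and 12.77 in HFD, and at 12.46, 12.52 and 12.47 in ND. It showed the same opposite order. Vsig4, a complement receptor, differed from ND by -0.28 in LU (adjusted p = 0.042) and by 1.06 in HFD, and its LU and ND arrays overlapped. Vsig4 lost its call without any 1 of the LU arrays, the second HFD array, or the first or second ND array (adjusted p = 0.056 to 0.13). The ficolin Fcna fell by 1.26 in LU, where HFD did not pass (log2 -0.35, adjusted p = 0.052). The lectin gene Cd209f and the scavenger receptor gene Cd163 were low in both groups, at -1.29 and -0.91 against ND in LU. Of 35 genes of the Toll-like receptor pathway, 12 were higher in LU than in ND and 5 lower (median 0.08), and in HFD 17 were higher and 4 lower (median 0.14). In LU 21.1% of all named genes were higher and 18.6% lower, so the lower count of this list does not exceed the share of all genes. Tlr4, the endotoxin receptor, took opposite sides, at -0.29 in LU and 0.20 in HFD. Tlr5, the flagellin receptor, was 0.33 higher in LU than in ND, and HFD did not pass.

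Most mast cell genes were lower in LU than in ND, which the HFD alone did not give. Mast cells are tissue immune cells that store proteases and histamine in granules. Of 11 markers, 8 were lower in LU than in ND and 1 higher (median -0.51), while in HFD 1 was lower and 2 higher (median 0.08). The share of all named genes that were lower was 18.6% in LU and 27.7% in HFD. Cpa3, the mast cell carboxypeptidase, was at 7.71, 7.75 and 7.60 in LU, at 10.15, 9.63 and 9.77 in HFD, and at 9.53, 9.58 and 9.20 in ND. On this probe LU was not above background on any array, while another probe of Cpa3 was on 1 LU array. On the brightest probe Cpa3 was therefore at least 3.12-fold lower in LU than in ND (adjusted p = 1.8e-06), while HFD was 0.41 higher than ND (adjusted p = 0.019). The chymase gene Cma1 was at 7.77, 7.74 and 7.81 in LU, at 9.38, 8.82 and 8.99 in HFD, and at 8.79, 9.27 and 8.63 in ND. Mcpt4, another granule protease, was at 7.61, 7.44 and 7.56 in LU and not well above background there, and it was at least 1.98-fold lower than in ND (adjusted p = 2.6e-06). The signal of Cma1 was above background on 1 LU array, as were those of Tpsb2 and Fcer1a, so the sizes of these falls are limited by the background. Cma2, Tpsb2 and Fcer1a, which encode a chymase, a tryptase and a chain of the IgE receptor, differed from ND by -1.54, -0.75 and -0.51. The LU and ND arrays did not overlap for any of these 6 genes, which was also so for 54.4% of all named genes. Kit, the receptor for stem cell factor, fell by 0.41. Hdc, which makes histamine and is also expressed outside mast cells, was 0.35 higher in LU. A second probe of Hdc did not pass (log2 -0.16, adjusted p = 0.16), and the call was lost without the second or the third LU array or the third ND array (adjusted p = 0.056 to 0.073). Gata2 and Srgn, which many cell types share, did not pass. Without the third ND array Gata2 passed as lower (log2 -0.18, adjusted p = 0.036). Hdc and Gata2 had the highest mean signals of the 11 markers.

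Sequences upstream of 2 of the falling mast cell genes are shown because members of this group moved together. GATA factors act in mast cells and can bind the letters AGATAA. RefSeq promoters were at hand for 8 of the 11 markers, and 2 of these, or 25%, held AGATAA on either strand within 250 bases before the start, against 11.4% of 27025 genes. Capitals mark these letters, or TTATCT where they lie on the other strand. The regions are chr3:20242182-20242431 for Cpa3 and chr1:173227230-173227479 for Fcer1a, both on the minus strand of GRCm38.p6.
Cpa3: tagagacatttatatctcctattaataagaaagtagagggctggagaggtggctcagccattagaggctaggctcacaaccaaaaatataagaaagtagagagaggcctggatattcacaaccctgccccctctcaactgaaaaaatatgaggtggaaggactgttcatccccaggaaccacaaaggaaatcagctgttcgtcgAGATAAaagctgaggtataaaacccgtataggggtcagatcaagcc
Fcer1a: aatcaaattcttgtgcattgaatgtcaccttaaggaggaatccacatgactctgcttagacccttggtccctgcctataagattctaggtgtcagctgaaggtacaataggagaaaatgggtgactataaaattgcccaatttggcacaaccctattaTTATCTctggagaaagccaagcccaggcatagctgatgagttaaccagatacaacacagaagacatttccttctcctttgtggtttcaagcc
A match of 6 letters is a description of the sequence and not a binding site.

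Lymphatic markers were mostly lower in LU as well. Of 11 lymphatic endothelial markers, 9 were lower in LU and none higher (median -0.53), and in HFD 2 were lower and 2 higher (median 0.00). Mmrn1, a secreted protein of these vessels, was at 8.79, 8.70 and 8.76 in LU, at 10.13, 9.74 and 9.84 in HFD, and at 10.11, 10.12 and 9.49 in ND. LU differed from ND by -1.16 ± 0.14 (adjusted p = 0.00011). Ccl21a, the chemokine by which lymphatic vessels draw immune cells, was at 11.64, 11.28 and 11.38 in LU and at 12.54, 12.62 and 11.56 in ND. Here the groups overlapped, since the third ND array was low, and Ccl21a shares nearly all of its sequence with Ccl21c, so these probes may not tell the copies apart. Ccl21a lost its call without the second or the third LU array or the first or second ND array (adjusted p = 0.067 to 0.079). Of 19 vascular endothelial markers, 2 were higher and 3 lower in LU (median -0.13, and -0.05 without the second ND array). In HFD 8 of these were lower and none higher (median -0.17). The LU count of lower vascular markers lies near the 18.6% of all named genes. Fibroblast and preadipocyte markers were lower in LU in 11 of 18 cases and higher in 1 (median -0.25). In HFD 7 of these were lower and 2 higher (median -0.10). Of the 18, 5 were still away from ND in the direction of the HFD, and 5 differed in LU alone. Matrix glycoproteins and proteoglycans were lower in 11 of 26 cases and higher in 5 (median -0.14), where HFD had 2 lower and 12 higher (median 0.22). For all lists of this paragraph, the shares of all named genes were 18.6% lower and 21.1% higher in LU. In HFD they were 27.7% lower and 25.2% higher. The 5 matrix genes that were higher in LU lie near the share of all genes.

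Some matrix genes took opposite sides of ND. Mgp, an inhibitor of calcification, was at 12.42, 12.17 and 12.27 in LU, at 13.88, 13.56 and 13.49 in HFD, and at 12.98, 13.08 and 12.48 in ND. It differed from ND by -0.56 in LU (adjusted p = 0.0098) and by 0.80 in HFD (adjusted p = 0.00068). Mfap5, of elastic microfibrils, was at 10.50, 10.69 and 10.70 in LU, at 11.77, 11.67 and 11.44 in HFD, and at 11.28, 11.44 and 11.09 in ND. Fibronectin, encoded by Fn1, fell by 0.58 in LU and was 0.29 higher in HFD, with a second probe of Fn1 that did not pass in LU (log2 -0.16, adjusted p = 0.14). Fbln1, a glycoprotein of basement membranes and elastic fibers, was at 10.85, 10.80 and 10.72 in LU, at 11.95, 11.53 and 11.51 in HFD, and at 11.73, 11.57 and 11.70 in ND. HFD and ND overlapped for Fbln1 and LU lay below both. Ccn2, the connective tissue growth factor, fell by 0.81 in LU.

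**Figure D3:**
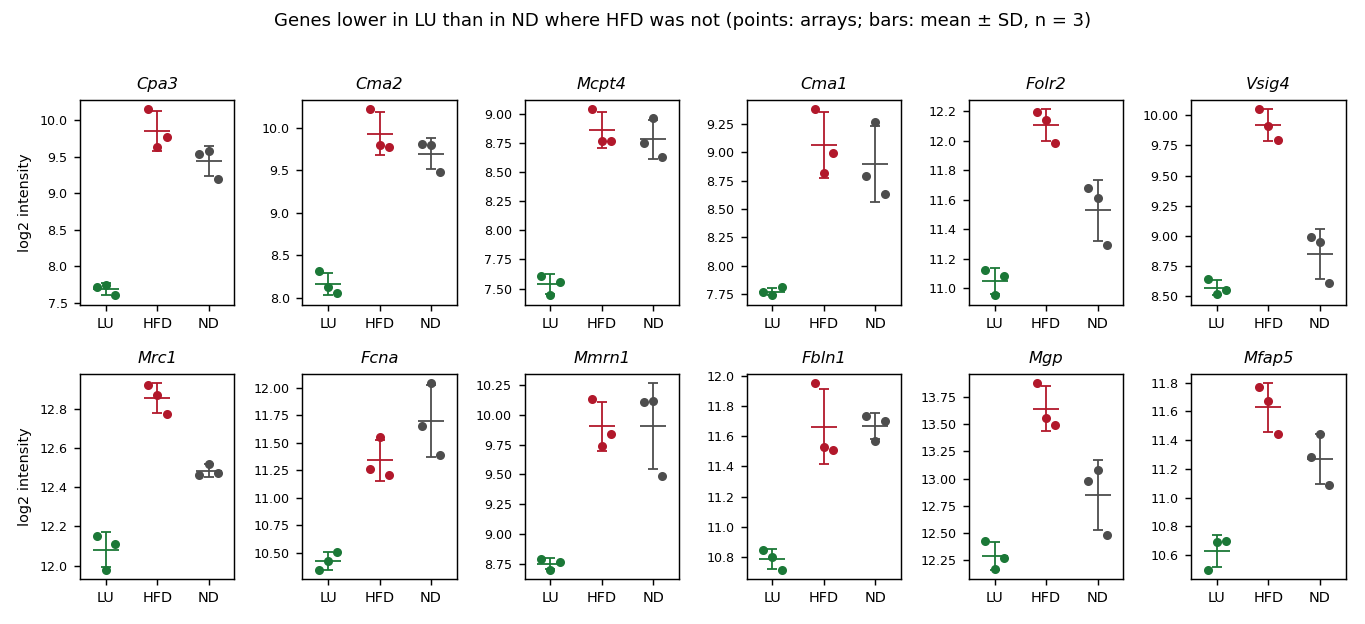
Log2 intensity (y axes, each panel on its own range) of 12 genes of mast cells, resident macrophages, lymphatic vessels and matrix on the 3 LU, 3 HFD and 3 ND arrays, with mean and SD. LU is the lowest group in every panel, and for Vsig4 alone of the 12 the lowest ND array reaches into the range of LU. No overlap between LU and ND holds for 54.4% of all named genes.

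Of all the gene lists examined, the motile cilium list had the most genes that were higher in LU alone, with 16, and no other list had more than 2. Among all named genes 3.92% were of this kind. The lists differ in length and were chosen with earlier results of these data known, so this rank only describes them. Motile cilia are beating organelles built on an axoneme of microtubules, dynein motors and radial spokes, and adipocytes are not known to carry them. Of 32 genes measured, 19 were higher in LU than in ND and 3 lower, with a median of 0.37 (0.32 with 2 genes at their lower bound). In HFD 2 were higher and 4 lower, with a median of -0.06. The share of all named genes that were higher was 21.1% in LU and 25.2% in HFD. Rsph1, a radial spoke protein, was at 10.23, 10.28 and 10.10 in LU, at 9.69, 9.03 and 9.29 in HFD, and at 9.79, 9.22 and 9.32 in ND. It was 0.76 ± 0.16 higher in LU than in ND (adjusted p = 0.0036) and 0.87 higher than in HFD (adjusted p = 0.0016). Cfap65, a protein of cilia and flagella, was at 9.02, 8.99 and 9.02 in LU, at 8.21, 7.92 and 8.04 in HFD, and at 8.41, 8.19 and 8.12 in ND. Dynlrb2, a dynein light chain, was at 10.38, 10.47 and 10.32 in LU, at 9.68, 9.43 and 9.50 in HFD, and at 10.18, 9.17 and 9.55 in ND. The first ND array thus came near LU for Dynlrb2, and the LU arrays lay close together. Odf3b, Cfap69 and Dnali1, the last a dynein light intermediate chain, rose by 0.74, by 0.71 and by 0.55. Over the whole list the median distance from the ND mean was 0.36, 0.37 and 0.33 on the LU arrays, 0.08, -0.20 and -0.06 on the HFD arrays, and 0.18, -0.12 and -0.09 on the ND arrays. LU was therefore above every other array, and the first arrays of ND and HFD were the highest of their groups.

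Not every cilium gene followed. Dnah11, a dynein heavy chain, was at 10.31, 10.34 and 10.31 in LU, at 10.43, 10.43 and 10.27 in HFD, and at 9.30, 8.95 and 9.46 in ND, which puts it among the genes still away from ND. Rsph9, Rfx2 and Tppp3 were lower in LU, at -0.29, -0.28 and -0.50. Rfx2 lost its call without any 1 LU array or the third ND array (adjusted p = 0.053 to 0.12), and a second probe of Rsph9 did not pass (adjusted p = 0.14). Of 37 listed epididymis and sperm genes, markers of the neighbouring organ, only 4 were measured. Of these 0 passed, and 2 of the 4 were not above background on any LU array. Whether tissue of that organ adds to the cilium values was not tested. Outside the list, Prr29, Cdhr3 and Ush1c were also among the 12 largest rises that the HFD alone did not give, with 0.86, 0.74 and 0.71. The other probes of Cdhr3 did not pass (adjusted p = 0.21 and 0.69).

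The promoters of 3 of the rising cilium genes show a sequence that recurred in the list. RFX factors, which drive cilium genes, bind a box of which one side can read GTTGCC. Promoters were at hand for 28 of the 32 genes, and 13 of these, or 46.4%, held GTTGCC on either strand within 250 bases before the start, against 11.8% of 27025 genes. Of the 19 genes that rose, 16 had a promoter and 8 of these held it, among them Tekt1, Ccdc113, Mns1, Cfap161, Fam183b, Dynlrb2 and Enkur. This share is near that of the whole list, so the letters do not set the risen genes apart from the other cilium genes. Ccdc113 lost its call without the second LU array (adjusted p = 0.063). The spelling GTTGCC was chosen after other spellings of the box had been counted. Capitals mark it below. The regions on GRCm38.p6 are chr8:116504765-116505014 on the plus strand for Dynlrb2, chr11:58801961-58802210 on the minus strand for Fam183b, and chr2:21205366-21205615 on the minus strand for Enkur.
Dynlrb2: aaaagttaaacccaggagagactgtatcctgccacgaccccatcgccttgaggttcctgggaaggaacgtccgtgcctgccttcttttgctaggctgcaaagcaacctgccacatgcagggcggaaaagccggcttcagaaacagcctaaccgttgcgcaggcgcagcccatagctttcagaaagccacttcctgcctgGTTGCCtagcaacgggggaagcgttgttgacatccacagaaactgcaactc
Fam183b: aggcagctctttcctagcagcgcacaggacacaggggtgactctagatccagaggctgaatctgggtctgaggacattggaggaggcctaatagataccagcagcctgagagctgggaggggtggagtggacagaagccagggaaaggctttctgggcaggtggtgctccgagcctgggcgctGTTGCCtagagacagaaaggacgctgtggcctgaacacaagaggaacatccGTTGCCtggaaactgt
Enkur: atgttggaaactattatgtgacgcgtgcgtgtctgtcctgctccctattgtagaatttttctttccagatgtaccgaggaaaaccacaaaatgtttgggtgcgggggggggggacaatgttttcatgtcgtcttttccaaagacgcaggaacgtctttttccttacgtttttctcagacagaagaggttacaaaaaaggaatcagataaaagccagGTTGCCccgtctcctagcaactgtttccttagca
Fam183b holds the letters at 2 places and Dynlrb2 and Enkur at 1. The rises of these genes in LU over ND were 0.75 for Dynlrb2, 0.75 for Fam183b and 0.35 for Enkur.

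**Figure D4:**
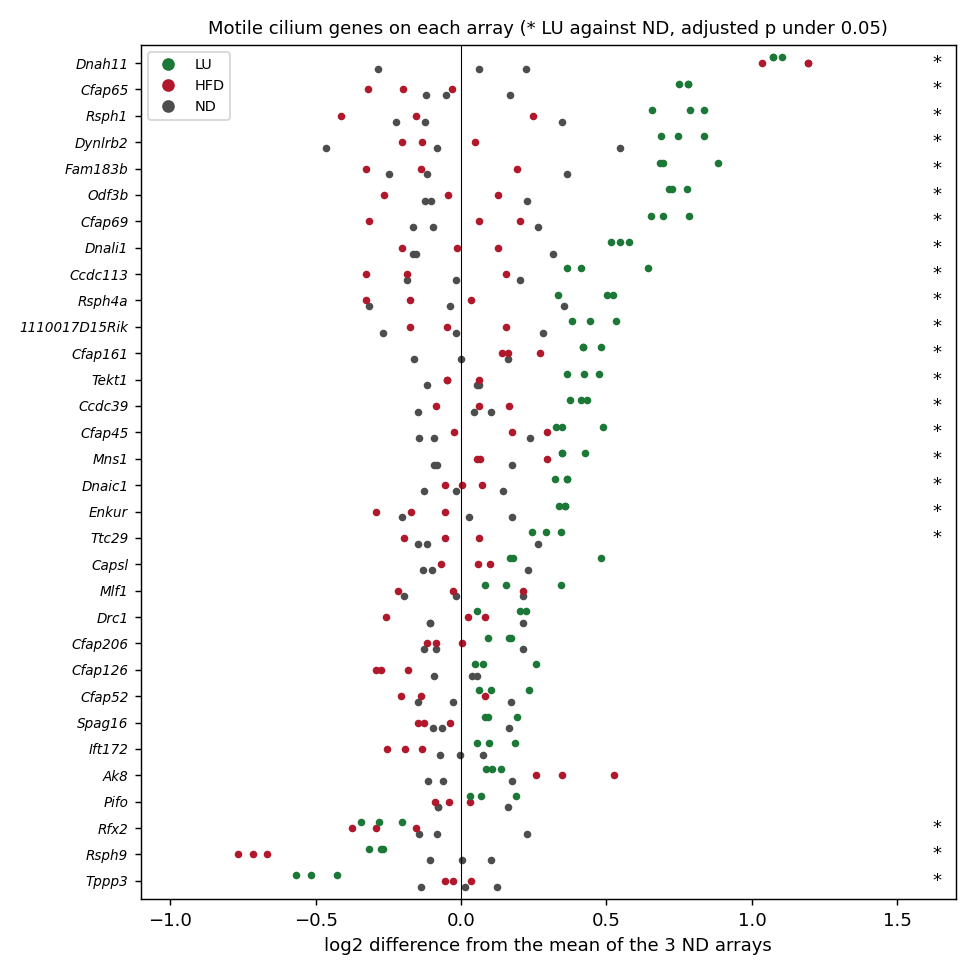
Distance of each array from the mean of the 3 ND arrays on the log2 scale (x axis) for the 32 measured motile cilium genes (y axis, ordered by LU against ND). Asterisks mark an adjusted p under 0.05 in LU against ND, which holds for 19 genes to the right and 3 to the left, and the HFD arrays lie around 0 for most genes.

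A few genes of fat metabolism were above ND in LU and not in HFD. The fatty acid transporter gene Cd36 was at 9.53, 9.56 and 9.63 in LU, at 8.83, 9.04 and 9.0 in HFD, and at 8.99, 8.84 and 8.85 in ND. It was higher in LU than in ND (adjusted p = 2.7e-05). Fabp4, the fatty acid binding protein of adipocytes, was at 9.19, 9.28 and 9.15 in LU, at 8.19, 8.38 and 8.55 in HFD, and at 8.62, 8.73 and 8.59 in ND. The probes of Cd36 and Fabp4 were both dim for genes that adipocytes express strongly, so their levels and fold changes are doubtful. Their LU and ND arrays did not overlap, which was also so for 54.4% of all named genes. Cox8b, a subunit of cytochrome oxidase found in muscle and brown fat, was at 11.95, 11.99 and 12.13 in LU, at 11.28, 11.45 and 11.28 in HFD, and at 11.52, 11.37 and 11.21 in ND. Dbp, an output gene of the circadian clock, was 0.67 higher in LU, and HFD did not pass (log2 0.02, adjusted p = 0.93). The clock gene Per1 differed from ND by -0.75 in LU. The time of day of sampling is not given in the sources used here.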

How the data were processed

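RNA of epididymal WAT was hybridised to 1-colour Illumina bead arrays, 3 per diet group. The authors deposited non-normalized signal intensities with a detection p-value for each of 45281 probes, and a table of 17128 probes with log2 values that they had normalized. Names were taken from the platform annotation, which covers probes of that table only. Intensities of all 9 arrays were quantile-normalized and taken as log2, and 20558 probes were kept, each detected (p under 0.05) on 3 or more arrays. The arrays detected 42.2% to 43.8% of the probes, and their number limits the precision. Each gene was read from its brightest kept probe. All 9 arrays were fitted in 1 limma model (limma 3.58.1, R 4.3.3) over all kept probes, with Benjamini-Hochberg adjustment and a threshold of 0.05. The script was tested on simulated data. A gene remains away from ND where LU against ND and HFD against ND pass with the same sign. It differs in a direction the HFD alone does not give where HFD passes with the other sign, or where HFD does not pass and LU passes against both. A gene with no probe above background in a group has only a bound there, written as "at least". It compares the mean of the brighter group with the lowest signal of detected probes in the dimmer one.

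The genes named are the largest changes in LU against ND, in either class and in each list, the most abundant markers of each cell type, and genes the study names. The largest changes in LU against ND over all genes were taken only where the gene passed and its LU and ND arrays did not overlap. Genes brought in to complete a list or to show an exception were chosen after their values were seen. The members and the lists were chosen with earlier results of these data known. Array dates and slides are not given in the sources used here. The alternatives were median scaling, normexp background correction, the authors' table, the LU and ND arrays alone, a trend in the spread, other probe filters and probe choices, a replicate block, the methods' t-test, rank product, a fold threshold and leaving out each array.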

Additional observations from a re-analysis of the deposited data

How the results depend on the processing

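With 3 arrays a group the counts depended on the test. In LU against ND 1833 genes were higher and 1621 lower. Rank product gave 323 higher and 219 lower, and the methods' t-test gave 717 and 530 after Benjamini-Hochberg and 1949 and 1753 at an unadjusted p under 0.05. A fold of 1.5 as well left 303 higher and 165 lower, with 280 and 129 among those still away from ND and 20 and 34 among those in a direction the HFD alone does not give. It was not run for the genes that passed in HFD and fell short in LU. With median scaling the class in a direction the HFD alone does not give held 424 higher and 221 lower genes, against 380 and 365, and the cause was not tested. Leaving out 1 array gave 1349 to 1955 higher and 1113 to 1641 lower genes in LU against ND, and 1000 to 1329 and 725 to 1100 still away from ND. For the direction the HFD alone does not give it gave 207 to 446 higher and 225 to 366 lower. The low ends came without an LU array: 207, 215 and 236 were higher and 225, 246 and 237 lower without the first, the second and the third LU array. Of the 745 genes of this class in the main fit, 56.6%, 60.5% and 60.8% stayed in it without these arrays in turn. Of the 2287 genes still away from ND, 75.3%, 77.4% and 75% stayed in their class. The cause was not tested. With the replicate block 1767 genes were higher and 1541 lower. The numbers are no known pairing, and deviations of same-numbered arrays correlated at -0.099 to 0.087. Of the 96 genes in the text that passed, 22 did not pass by rank product and 37 by the methods' t-test after Benjamini-Hochberg. By rank product these included Folr2, Mrc1, Vsig4, Tlr4, Tlr5, Insr, Ptpn1, Ccl2, Ccl7, H2-Aa, Kit and Fcer1a and the cilium genes Tekt1, Ccdc113, Mns1, Cfap161, Enkur and Dnali1 (adjusted p = 0.052 to 0.4). By the methods' t-test they included Acsm3, Irf4, Lep, Mgp, Mfap5, Fn1, Mmrn1 and Folr2 and the cilium genes Rsph1, Dynlrb2, Fam183b and Cfap69 (adjusted p = 0.05 to 0.17). Normexp background correction made the medians of several lists larger: -1.35 against -0.51 for mast cells, -0.92 against -0.34 for mesothelium, -0.81 against -0.48 for resident macrophages, 0.69 against 0.37 for cilium genes, 0.55 against 0.27 for mitosis, 0.32 against 0.20 for class II presentation and 0.22 against 0.13 for collagens. Under it Vsig4, Hdc, Rfx2 and Ccl21a no longer passed (adjusted p = 0.05 to 0.07), nor did Vsig4 and Rfx2 under median scaling (adjusted p = 0.077 and 0.059) or Hdc with the mean of its probes (adjusted p = 0.47).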
